A study of Mus musculus with 6 samples.

Results

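Isg15 and the Ifit genes are interferon-stimulated genes, and 5 of them, Isg15, Ifit1, Ifit2, Ifit3 and Ifit3b, were followed here by gene name in a table of 36842 mouse genes. The 6 RNA-seq libraries are labelled as GC-2spd(ts) of wild-type genotype from testis, a mouse line immortalised from spermatocytes. The 3 CP libraries came from cells given 2 mM cyclophosphamide, an alkylating drug that damages germ cells, for 24 h. The 3 Sal_CP libraries came from cells given the same dose of cyclophosphamide for 24 h together with 100 µM salidroside, a plant phenylethanoid glycoside. All 6 libraries thus share the drug, and cells without it are not analysed here. What salidroside changed on top of the drug is the comparison, and the series names regulation of GPX4 as its question. The members were chosen by their lower FPKM in Sal_CP than in CP in these same libraries, so their levels and differences are given as a description with no test.

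Cells that sense viral or misplaced nucleic acid secrete type I interferon, which acts through its receptor, the kinases JAK1 and TYK2 and a complex of transcription factors that includes IRF9. That complex binds interferon-stimulated response elements, in which the letters GAAA recur, and switches on genes such as Isg15 and the Ifits. ISG15 is a ubiquitin-like protein that is joined to other proteins by an enzyme cascade. IFIT proteins are built of tetratricopeptide repeats. IFIT1 binds RNA whose cap lacks ribose methylation and blocks its translation. IFIT2 and IFIT3 are partners of IFIT proteins in such complexes, IFIT2 is also known to bind the translation factor eIF3, and Ifit3b is a close copy of Ifit3.

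The Ifit genes form 1 cluster on chromosome 19. In GRCm38 with the GENCODE M21 annotation, all members are protein-coding. Ifit2 (ENSMUSG00000045932) spans 34550694 to 34576419 on the plus strand, Ifit3 (ENSMUSG00000074896) 34583531 to 34588731, Ifit3b (ENSMUSG00000062488) 34607970 to 34613401 and Ifit1 (ENSMUSG00000034459) 34640871 to 34650009, so that the 4 lie within 99.3 kb. Isg15 (ENSMUSG00000035692) lies apart from them, at 156199424 to 156200818 on the minus strand of chromosome 4.

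The bases before the start sites are shown for the 4 of the 5 members in which the core of the response element was found. Whether it bears on their levels here was not tested. Each stretch, from RefSeq on GRCm38.p6, runs 5′ to 3′ on the strand of its gene and ends 31 bases before the RefSeq start, and the Ifit1 stretch is shorter because an annotated exon of its neighbour begins there. Capitals mark every match to the core of the response element, searched on both strands as TTTC, any 2 bases and TTTC, or as its reverse complement GAAA, any 2 bases and GAAA. The stretches lie at chr4:156200849-156201018 (minus strand) for Isg15, chr19:34640744-34640858 for Ifit1, chr19:34583329-34583498 for Ifit3 and chr19:34607757-34607926 for Ifit3b, the last 3 on the plus strand.
Isg15: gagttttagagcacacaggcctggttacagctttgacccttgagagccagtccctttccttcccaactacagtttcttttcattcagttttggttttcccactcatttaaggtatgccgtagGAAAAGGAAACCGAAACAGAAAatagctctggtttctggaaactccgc
Ifit1: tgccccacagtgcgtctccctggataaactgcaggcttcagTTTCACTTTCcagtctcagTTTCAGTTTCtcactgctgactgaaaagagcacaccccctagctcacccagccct
Ifit3: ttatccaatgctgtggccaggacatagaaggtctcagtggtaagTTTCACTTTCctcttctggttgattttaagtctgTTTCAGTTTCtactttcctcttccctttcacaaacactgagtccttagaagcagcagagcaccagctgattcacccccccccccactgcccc
Ifit3b: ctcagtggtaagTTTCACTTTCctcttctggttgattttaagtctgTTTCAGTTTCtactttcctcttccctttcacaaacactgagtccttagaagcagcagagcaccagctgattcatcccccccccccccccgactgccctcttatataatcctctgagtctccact

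Windows of 300 bases, from 250 before to 50 after the RefSeq start, held 3 matches in Isg15, 2 in Ifit1, 2 in Ifit3 and 2 in Ifit3b. The 3 matches of Isg15 overlap each other and begin at positions -78, -72 and -66 from the start. Among all 32851 such windows, 3.44% held a match and 0.225% held 2 or more. Both windows of Ifit2 held 0 matches, which says only that these letters are not in these windows. By the GENCODE M21 starts, which differ from those of RefSeq, Ifit1 begins 128 bases from Ifit1bl2, a gene on the other strand, and the 2 matches of Ifit1 are also those of Ifit1bl2. Before the starts of Ifit3 and Ifit3b, 218 bases could be aligned, with 1 mismatch.

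Several facts about the libraries bear on the values. FPKM divides a gene's fragments by its length and by the total of its library, so levels can be compared between genes. Among genes with 1 transcript, 35.7 to 37.8% of low values fell on steps that match whole fragments or single reads of a pair, and by those steps the libraries held an estimated 16490000 to 22030000 fragments. The labels name no separate cultures behind the libraries, so the spread between them may be technical. The spermatocyte label was checked against its markers. Of 10 spermatocyte and meiosis markers, Dmc1, the meiotic recombinase, lay between 0.0345 and 0.299 FPKM, Sycp3, of the synaptonemal complex, between 1.39 and 3.75, and Stra8, the entry factor of meiosis, at 0 in 5 of 6 libraries. Smcp, a late spermatid transcript, lay between 13192 and 32993 FPKM, and Crisp1, the highest of the epididymal markers, between 1423 and 3521. These levels do not match a culture of spermatocytes alone, and which cells gave the RNA was not tested. In these bulk samples, fewer cells of a type and less RNA per cell cannot be told apart. Sal_CP replicate 1 stood apart, with the highest mean over the 10 macrophage markers, although Cd163, one of them, lay there below every CP library, and CP replicate 3 had 50.4% of its FPKM in mitochondrially encoded genes, against 29 to 38.8% elsewhere.

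Isg15 was the most abundant member. It stood at 20.9, 20.3 and 21.1 FPKM in CP and at 5.08, 3.64 and 2.01 FPKM in Sal_CP. The CP libraries lay within 1 FPKM of each other, and every Sal_CP library lay below them. The means were 20.8 ± 0.425 and 3.58 ± 1.54 FPKM (SD, n = 3 each), a level 5.81 times higher in CP. In fragments, Isg15 rested on 267 to 293 per CP library and on 25 to 84.6 per Sal_CP library.

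Ifit3 stood at 13.2, 12.3 and 10.8 FPKM in CP and at 2.51, 1.57 and 2.61 FPKM in Sal_CP. The groups did not overlap, and Sal_CP replicate 2 was the lowest. The means were 12.1 ± 1.24 and 2.23 ± 0.571 FPKM (SD, n = 3 each), 5.44 times higher in CP.

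Ifit3b, the copy of Ifit3, stood at 5.39, 3.99 and 4.22 FPKM in CP and at 1.03, 0.716 and 0.136 FPKM in Sal_CP. Its lowest library, Sal_CP replicate 3, was not the lowest for Ifit3, and it rested on 4.5 fragments there against 140 to 182 in CP. The means were 4.53 ± 0.749 and 0.629 ± 0.455 FPKM (SD, n = 3 each), 7.21 times higher in CP.

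Ifit1, which recognises the RNA cap, stood at 4.94, 3.06 and 3.41 FPKM in CP and at 1.34, 0.453 and 0.612 FPKM in Sal_CP. The means were 3.80 ± 1.00 and 0.803 ± 0.475 FPKM (SD, n = 3 each), 4.74 times higher in CP. Every CP library lay above every Sal_CP library, and replicate 1 was the highest in both groups.

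Ifit2 showed the smallest difference of the 5. It stood at 4.75, 3.00 and 2.20 FPKM in CP and at 1.67, 0.675 and 0.791 FPKM in Sal_CP, so that the lowest CP library and the highest Sal_CP library were close. The means were 3.32 ± 1.31 and 1.04 ± 0.542 FPKM (SD, n = 3 each), 3.18 times higher in CP.

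**Figure D1:**
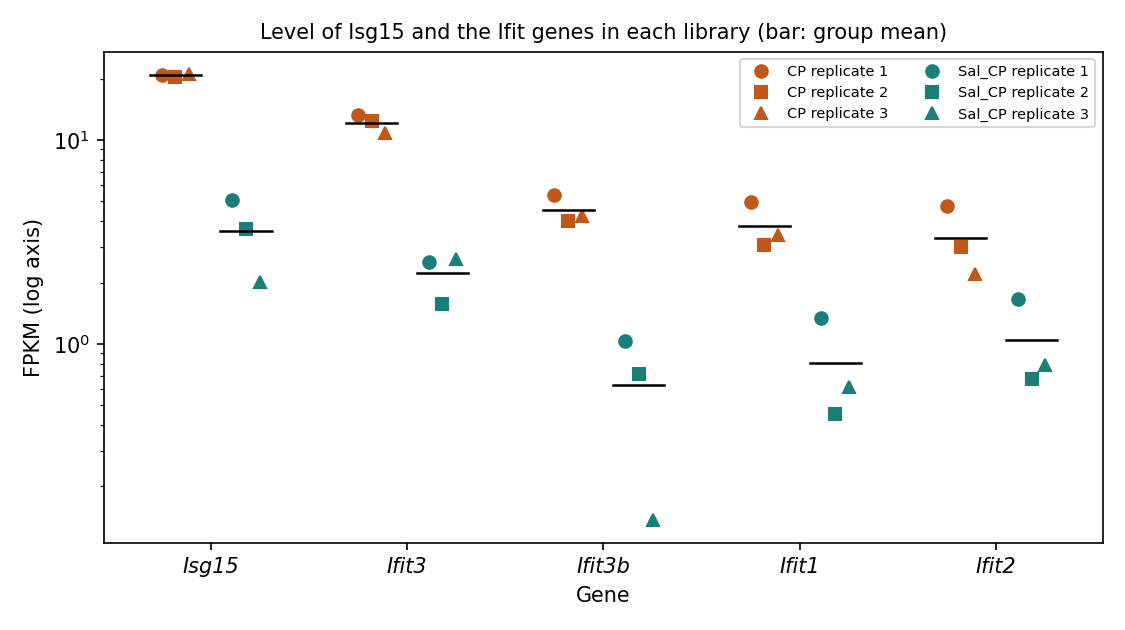
FPKM (log axis) of each gene in the 3 CP and 3 Sal_CP libraries, with a point per library and a black bar at the group mean. Isg15 lay at 20.3 to 21.1 FPKM in CP and 2.01 to 5.08 in Sal_CP, no gene overlapped between groups, and Ifit3b in Sal_CP replicate 3 was the lowest point at 0.136.

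As log2(FPKM + 1), a scale on which differences of low genes are understated, the differences of Sal_CP from CP were -2.31 (SE 0.30) for Isg15, -2.03 (SE 0.26) for Ifit3 and -1.80 (SE 0.27) for Ifit3b. They were -1.43 (SE 0.27) for Ifit1 and -1.07 (SE 0.29) for Ifit2. The median difference over all 12241 genes tested was -0.12. Among those genes, ordered from the most negative difference, Isg15 stood at place 8, Ifit3 at 14, Ifit3b at 28, Ifit1 at 63 and Ifit2 at 172. All 5 members passed the filter, a mean over the 6 libraries of 1 FPKM or more.

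limma called 3 of the 5 lower in Sal_CP at an adjusted p below 0.05, Isg15, Ifit3 and Ifit3b, where it called 0.0735% of all tested genes lower. The authors' deposited table calls all 5 lower, and 0.420% of the genes above 0 in it. In all 5 the highest Sal_CP library lay below the lowest CP library, as in 10% of tested genes. These counts describe the contrast on which the genes were chosen, and nothing is read from them. Because no member overlapped between groups, leaving out 1 library could alter the size of a difference but not its sign. With 1 library left out, the differences were -2.54 to -2.04 for Isg15, -2.12 to -1.88 for Ifit3 and -1.98 to -1.56 for Ifit3b. They were -1.63 to -1.26 for Ifit1 and -1.27 to -0.84 for Ifit2. limma called 0 of the 5 without Sal_CP replicate 1, Sal_CP replicate 2 or CP replicate 1, and 0 after median of ratios rescaling or with no filter on low values.

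The order of levels was compared within libraries. In CP, Isg15 lay above Ifit3 in every library, and Ifit3 above the other 3. Ifit3b, Ifit1 and Ifit2 followed at 4.53, 3.80 and 3.32 FPKM, and their ranges overlapped. In Sal_CP the ranges of Isg15 and Ifit3 overlapped, and in Sal_CP replicate 3 Ifit3 (2.61 FPKM) lay above Isg15 (2.01). Ifit2, Ifit1 and Ifit3b followed at 1.04, 0.803 and 0.629 FPKM, again with overlap.

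Spread was larger, relative to the mean, in Sal_CP for each member. The coefficient of variation of Isg15 was 2.05% in CP and 42.9% in Sal_CP, and that of Ifit3 was 10.2% and 25.6%. It was 16.5% and 72.4% for Ifit3b, 26.3% and 59.2% for Ifit1, and 39.4% and 51.9% for Ifit2. Fewer fragments lay behind the Sal_CP values, which widens counting error. The 95% Poisson interval for Isg15, exact and for counting error only, was 4.08 to 6.31 FPKM in Sal_CP replicate 1 and 1.30 to 2.96 in Sal_CP replicate 3. Those 2 intervals did not overlap. In CP replicate 1 the interval was 18.4 to 23.5 FPKM and held all 3 CP values of Isg15, so their small spread lies within counting error.

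Ratios between members cancel the scaling of a library. The Ifit genes summed to 28.3, 22.4 and 20.6 FPKM in CP and to 6.56, 3.42 and 4.14 in Sal_CP. The ratio of Isg15 to that sum was 0.738, 0.907 and 1.02 in CP and 0.774, 1.07 and 0.485 in Sal_CP, with overlap.

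Ifit2 took a larger share of the Ifit sum in Sal_CP. Its share of the sum was 16.8, 13.4 and 10.7% in CP and 25.4, 19.7 and 19.1% in Sal_CP, without overlap. The share of Ifit1 overlapped, at 17.5, 13.7 and 16.5% in CP and 20.5, 13.3 and 14.8% in Sal_CP. The ratio of Ifit1 to Ifit2, a pair chosen after its values were seen, was 1.04, 1.02 and 1.55 in CP and 0.807, 0.672 and 0.774 in Sal_CP, also without overlap. The difference in mean log2 ratio was -0.66, and -0.76 to -0.46 when each library was left out in turn. The ratio of Ifit2 to Ifit3 overlapped between groups, at 0.359, 0.243 and 0.204 in CP and 0.663, 0.429 and 0.303 in Sal_CP. Its mean log2 difference was 0.76, and 0.47 to 1.03 with each library left out in turn, lowest without Sal_CP replicate 1. Ifit3 shares overlapped, at 46.8, 55.1 and 52.3% in CP and 38.3, 46.0 and 62.9% in Sal_CP.

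Ifit3b stood to Ifit3 in nearly the same ratio in 5 of the 6 libraries. The ratio of Ifit3b to Ifit3 was 0.407, 0.323 and 0.391 in CP, 0.411 and 0.455 in Sal_CP replicates 1 and 2, and 0.0524 in Sal_CP replicate 3. The mean log2 ratio differed by -0.80 between groups with that library and by 0.22 without it. In fragments, Ifit3b held 31.8, 27.0 and 30.9% of those given to the pair in CP. It held 32.2% (95% exact binomial interval 24.6 to 40.5%), 34.8% (23.7 to 47.2%) and 5.06% (1.40 to 12.5%) in Sal_CP, so the interval of replicate 3 lay below all the others. These intervals cover counting error only.

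The split between these copies depends on how reads were assigned. The coding sequences of Ifit3 and Ifit3b in GENCODE M21, each of 1209 bases, are 99.1% identical. Of all stretches of 150 bases, the read length, 18.5% in the Ifit3 transcript and 16.0% in the Ifit3b transcript occur unchanged in the other. Reads from those stretches cannot be placed by sequence alone, and the sources used here do not name the quantifier. Ifit1 and Ifit2 share 0 such stretches with Ifit3, Ifit3b or each other, and coding identity between Ifit1, Ifit2 and Ifit3 was 62.3 to 69.2%.

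**Figure D2:**
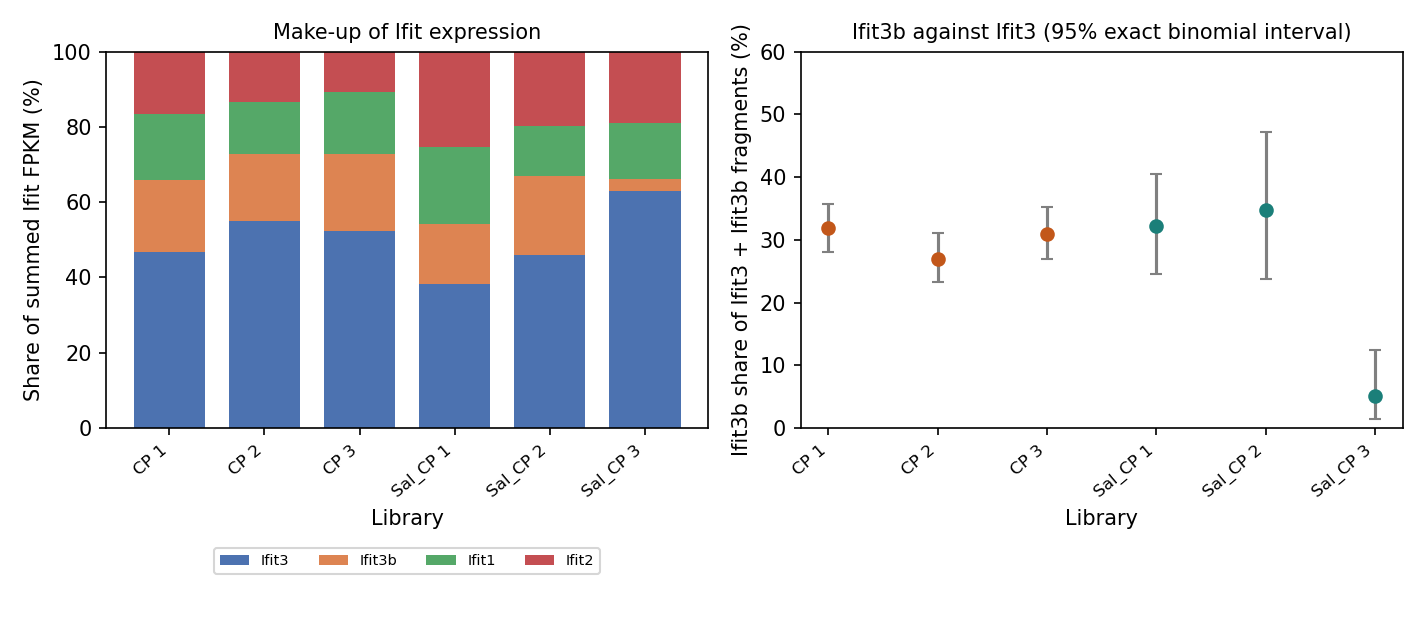
Left, share of each gene in the summed Ifit FPKM (%) by library. Right, Ifit3b as a share of the fragments of Ifit3 and Ifit3b (%), with 95% exact binomial intervals. Sal_CP replicate 3, at 5.06%, lay below the other 5 libraries, which ranged from 27.0 to 34.8%.

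The cluster holds a further pair of Ifit-like genes, which were near 0. Ifit1bl1 stood at 0.304, 0.630 and 0.0241 FPKM in CP and 0.110, 0 and 0.0402 in Sal_CP. Ifit1bl2, which shares its start region with Ifit1, stood at 0.427, 0.117 and 0.315 FPKM in CP and 0.351, 0.126 and 0.0631 in Sal_CP. Neither passed the filter, and in both the groups overlapped, unlike in the 4 members of the cluster. Coding identity of Ifit1 with them was 78.6 and 78.1%.

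Genes beside the cluster and beside Isg15 were looked at next. Of 6 tested neighbours of the cluster, 4 lay below 0 and 2 above, with a median difference of -0.13, where 60.5% of all tested genes lay below 0. That median was -0.28, -0.0821 and -0.0229 when Sal_CP replicates 1, 2 and 3 were left out in turn, and -0.0159 without CP replicate 2. Fas, the death receptor, had a log2 difference of -0.59 (SE 0.24, adjusted p 0.444 in limma), and Acta2, smooth muscle actin, one of -0.51 (adjusted p 0.505). Of 3 tested neighbours of Isg15 all lay below 0, with a median of -0.22, among them Agrn, which encodes agrin (-0.74, SE 0.26, adjusted p 0.42). Their median was -0.48, -0.0722 and -0.1004 without Sal_CP replicates 1, 2 and 3 in turn, -0.13 without CP replicate 1 and -0.36 without CP replicate 3. limma called 0 of these 9 neighbours, and 2, Fas and Agrn, had an unadjusted p below 0.05.

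For the rest of the pathway, 175 genes were listed by role, of which 154 were in the table and 121 were tested. limma called 0 of the 121, against 0.0735% of all tested genes, while 50 (41.3%) had an unadjusted p below 0.05, all of them lower. Of all 12241 tested genes, 1314 (10.7%) had such a p in either direction, 829 of them lower. These lists were chosen with earlier results of the data known.

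Ligands were at or near 0. Of 8 interferon genes in the table, Ifna7, Ifnab, Ifnl2 and Ifnl3 were listed at 0 in all libraries. Ifnb1, interferon beta, was at 0.233, 0 and 0.409 FPKM in CP and 0.182, 0 and 0 in Sal_CP. Ifng, interferon gamma, was at 0.170, 1.54 and 0.107 FPKM in CP and 0.820, 0.219 and 0 in Sal_CP. None of the 8 passed the filter.

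Receptors and kinases lay mostly below 0, with 7 of 8 tested (60.5% of all tested genes) and a median of -0.34. Leaving out Sal_CP replicate 1 gave a median of -0.64, and leaving out Sal_CP replicate 3 one of -0.11. Ifnar2, a chain of the type I receptor, had a log2 difference of -0.53 (adjusted p 0.516 in limma) and Jak1 one of -0.54 (adjusted p 0.516). Jak1 stood at 9.44, 8.47 and 7.83 FPKM in CP and at 10.7, 4.43 and 3.45 in Sal_CP, so that Sal_CP replicate 1 lay above every CP library.

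Transcription factors of the pathway lay below 0 in 8 of 9 tested (60.5% of all tested genes), with a median of -0.52, or -0.84 without Sal_CP replicate 1. Irf7, which drives interferon genes, had -0.82 (SE 0.27, adjusted p 0.383 in limma), Stat2 -0.83 (adjusted p 0.402) and Irf9 -0.60 (adjusted p 0.464). Irf9 stood at 5.97, 5.61 and 5.44 FPKM in CP and 5.13, 3.10 and 2.40 in Sal_CP, without overlap.

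Nucleic acid sensors and adaptors lay below 0 in all 12 tested (60.5% of all tested genes), with a median of -0.54, or -0.84 without Sal_CP replicate 1. Zbp1, a sensor of Z-form nucleic acid, had -0.86 (SE 0.26, adjusted p 0.361 in limma), Ifih1, the RNA sensor MDA5, -0.75 (adjusted p 0.444) and Ddx58, the RNA sensor RIG-I, -0.65 (adjusted p 0.451). Adar, which edits double-stranded RNA, had -0.68 (adjusted p 0.444).

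The enzymes that attach ISG15 to proteins or remove it lay below 0 in 5 of 6 tested (60.5% of all tested genes), with a median of -0.51. Ube2l6, the conjugating enzyme, stood at 6.97, 5.88 and 5.08 FPKM in CP and at 2.78, 1.58 and 1.85 in Sal_CP. Its log2 difference was -1.19 (SE 0.26, adjusted p 0.157 in limma), the largest of the 6. Usp18, the protease that removes ISG15, had -0.67 (adjusted p 0.444), Herc6, a ligase, -0.47 (adjusted p 0.47) and Uba7, the activating enzyme, -0.55 (adjusted p 0.47). Groups did not overlap for Ube2l6, Usp18 and Herc6, 3 of the 6, where 10% of all tested genes were lower without overlap. They overlapped for Uba7, Arih1 and Trim25.

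Other interferon-stimulated genes lay below 0 in 56 of 60 tested (60.5% of all tested genes), with a median of -0.77. Every Sal_CP library lay below every CP library for 30 of the 60 (10% of all tested genes did so), and for 0 in the other direction. Oasl2, an oligoadenylate synthetase-like protein, had -1.19 (SE 0.26, adjusted p 0.181 in limma), Rsad2, the antiviral enzyme viperin, -1.20 (adjusted p 0.206) and Ifi27l2a -1.45 (adjusted p 0.206). Irgm1, an immunity-related GTPase, had -1.15 (adjusted p 0.231). The 4 genes above 0 were Tdrd7, Ccl5, Ifi207 and Slfn5. Another 13 of the list in the table lay under the filter, among them Mx1, Mx2, Oas2, Oas3 and Ifi44.

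Some of these genes, picked after their values were seen, had a different profile over CP libraries from that of the members. Gbp2, a guanylate-binding protein, stood at 8.88, 56.7 and 8.85 FPKM in CP, Cxcl10, a chemokine, at 3.83, 21.3 and 1.89, and Iigp1, an immunity-related GTPase, at 2.36, 9.20 and 0.811. CP replicate 2 was thus the highest for all 3, as it was for Ifng. It was not the highest CP library for any of the 5 members. The difference between the profiles was not tested.

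Partners of the IFIT proteins in translation lay on both sides of 0. Of 17 tested genes for cap recognition, cap methylation and eIF3 subunits, 10 lay below 0 and 7 above, with a median of -0.12, the median of all tested genes. It was -0.29, -0.0515 and -0.0153 without Sal_CP replicates 1, 2 and 3 in turn and -0.0655 without CP replicate 2. Eif4e2, a cap-binding protein, had 0.57 (adjusted p 0.482 in limma) and Rnmt, the cap methyltransferase, -0.36 (adjusted p 0.531). limma called 0 of the 17, and 0 had an unadjusted p below 0.05.

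**Figure D3:**
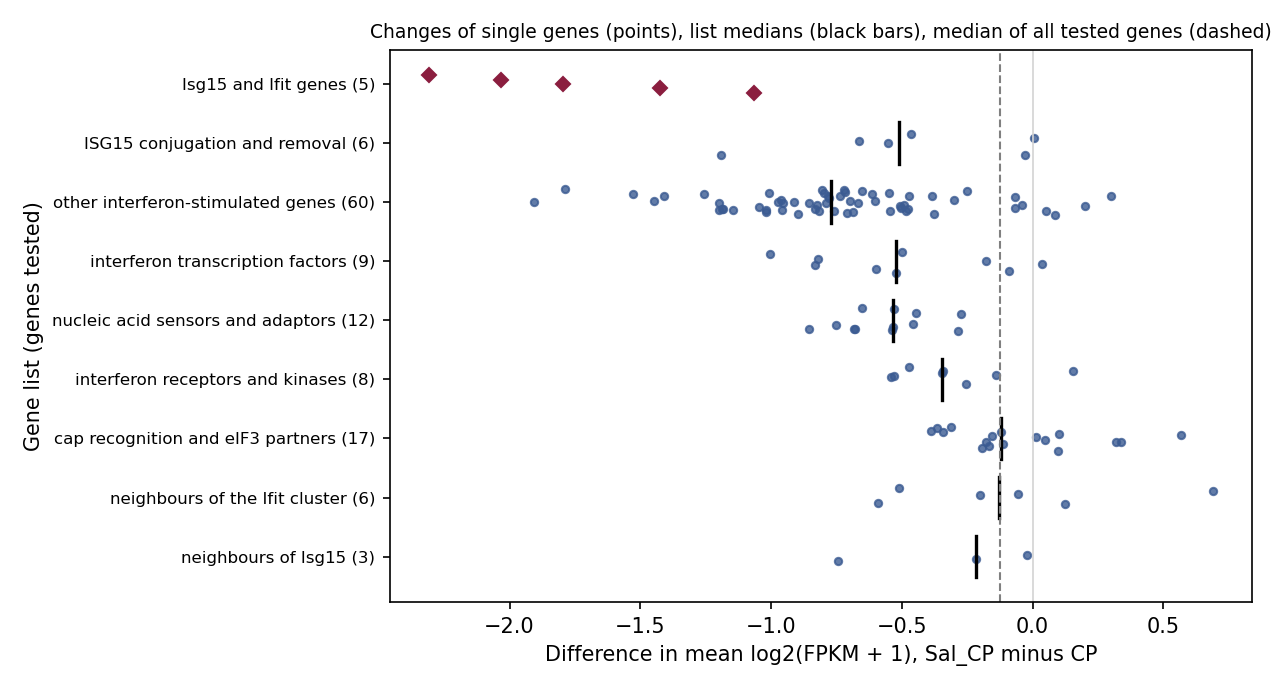
Difference in mean log2(FPKM + 1), Sal_CP minus CP, for Isg15 and the Ifit genes (diamonds) and for each tested gene of the pathway lists (points), with list medians as black bars and the median of all tested genes dashed at -0.12. The diamonds ran from -2.31 to -1.07, and the list medians from -0.77 to -0.12.

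Averaged over the 5 members, log2(FPKM + 1) reached 3.21, 2.90 and 2.85 in the CP libraries and 1.62, 1.13 and 1.03 in the Sal_CP libraries, a difference of -1.73. Among 10367 tested genes with a symbol, those most like the members over the 6 libraries, by Pearson's r with the mean of the standardized member levels, were Ube2l6 and Adgrg1 (r = 0.994 each), Zfp664 and Clec10a (0.993 each), B3gnt7 and Stc1 (0.992 each), Bsg (0.991), and Lifr, Ces1d and Oasl2 (0.99 each). These values describe 6 libraries in 2 separate groups, which also share depth and RNA make-up, and 505 genes had an r above 0.9. Of the 10, Ube2l6 and Oasl2 are in the interferon lists. Clec10a, a lectin known from macrophages and dendritic cells, stood at 2.29, 1.83 and 1.99 FPKM in CP and 1.21, 0.805 and 0.759 in Sal_CP. Bsg, the membrane protein basigin, differed far less in size, at 55.8 ± 1.91 FPKM in CP and 46.2 ± 1.76 in Sal_CP (SD, n = 3 each).

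Lists of markers for other cell types were set beside the members. Of 12 markers of epithelial junctions and keratins, 9 were lower in Sal_CP with no overlap between groups and none was at 0. Over all tested genes, 10% were lower without overlap. The summed level of the list was 558 to 712 FPKM in Sal_CP and 640 to 851 in CP, and averaged as log2(FPKM + 1) they gave 4.37, 3.95 and 3.53 in the Sal_CP libraries and 4.94, 4.70 and 5.08 in the CP libraries. Of 14 epididymal markers in the files, 4 were lower without overlap, and Lcn9 was at 0 in all libraries. Their sum was 1746 to 2561 FPKM in Sal_CP and 3614 to 4116 in CP, and most of it was Crisp1. By group mean, 10 of the 14 epididymal markers were lower in Sal_CP. Of 8 fibroblast and myoid markers 3 were lower without overlap, with sums of 39.8 to 71.9 FPKM in Sal_CP and 66.5 to 162 in CP, and none was at 0. As mean log2(FPKM + 1) this list gave 2.18, 2.05 and 2.50 in the Sal_CP libraries and 3.42, 2.55 and 2.78 in the CP libraries.

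Lists of testicular and vascular cells also differed without overlap in their mean log2(FPKM + 1), which was lower in Sal_CP for 3 of them. The 10 Sertoli markers gave 1.29, 0.986 and 1.30 in Sal_CP and 1.52, 1.55 and 1.74 in CP, with sums of 81.3 to 143 and 450 to 777 FPKM. Most of that sum was Clu, which encodes clusterin, with 772, 443 and 742 FPKM in CP against 124, 141 and 74.1 in Sal_CP. By gene, 2 of the 10 Sertoli markers were lower without overlap and 1 was higher. For comparison with the counts in this paragraph, 1230 of all 12241 tested genes were lower without overlap and 883 were higher. Many markers of these lists lay under 1 FPKM, below the filter on the tested genes. The 7 Leydig markers gave 0.29, 0.193 and 0.433 in Sal_CP and 0.50, 0.625 and 0.493 in CP, with sums of 1.27 to 3.05 and 3.76 to 5.42 FPKM, and 2 were lower without overlap. The 6 endothelial markers gave 0.494, 0.408 and 0.502 in Sal_CP and 0.785, 0.548 and 0.626 in CP, with sums of 2.31 to 3.26 and 3.49 to 6.06 FPKM, and 2 were lower without overlap. The mean of the 10 spermatocyte and meiosis markers was higher in Sal_CP, at 0.838, 0.851 and 1.07 against 0.632, 0.799 and 0.765 in CP. Their sums were 11.1 to 16.1 and 9.53 to 10.5 FPKM, and 2 of the 10 were higher without overlap. By group mean, 2 others, Dmc1 and Meiob, were lower in Sal_CP. None of these lists had a gene at 0 in all libraries. The part of the cells marked by these lists in the member values was not tested.

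The summed levels of leukocyte markers overlapped between groups. The 10 macrophage markers, none at 0, summed to 184 to 1106 FPKM in Sal_CP and to 277 to 592 in CP. By gene, 1 of the 10, Cd163, was lower without overlap, as were 10% of all tested genes. In Sal_CP replicate 1 their mean log2(FPKM + 1) was 5.46, above CP replicates 1 to 3 (4.88, 4.30 and 3.95), while the mean of the members was 1.62, below every CP library. The 10 lymphoid and general leukocyte markers, none at 0 in all libraries, gave 1.04 in Sal_CP replicate 1 and 0.758, 0.708 and 0.609 in CP. Their sum was 4.64 to 15.2 FPKM in Sal_CP and 7.24 to 9.32 in CP, and 0 were lower without overlap. The 12 late spermatid markers, none at 0, summed to 47357 to 78185 FPKM in Sal_CP and 32834 to 54827 in CP. By gene, 0 were apart between groups, yet all 12 had a higher group mean in Sal_CP. Averaged as log2(FPKM + 1), this list differed by 0.458 (Sal_CP minus CP), and the libraries of the groups overlapped.

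**Figure D4:**
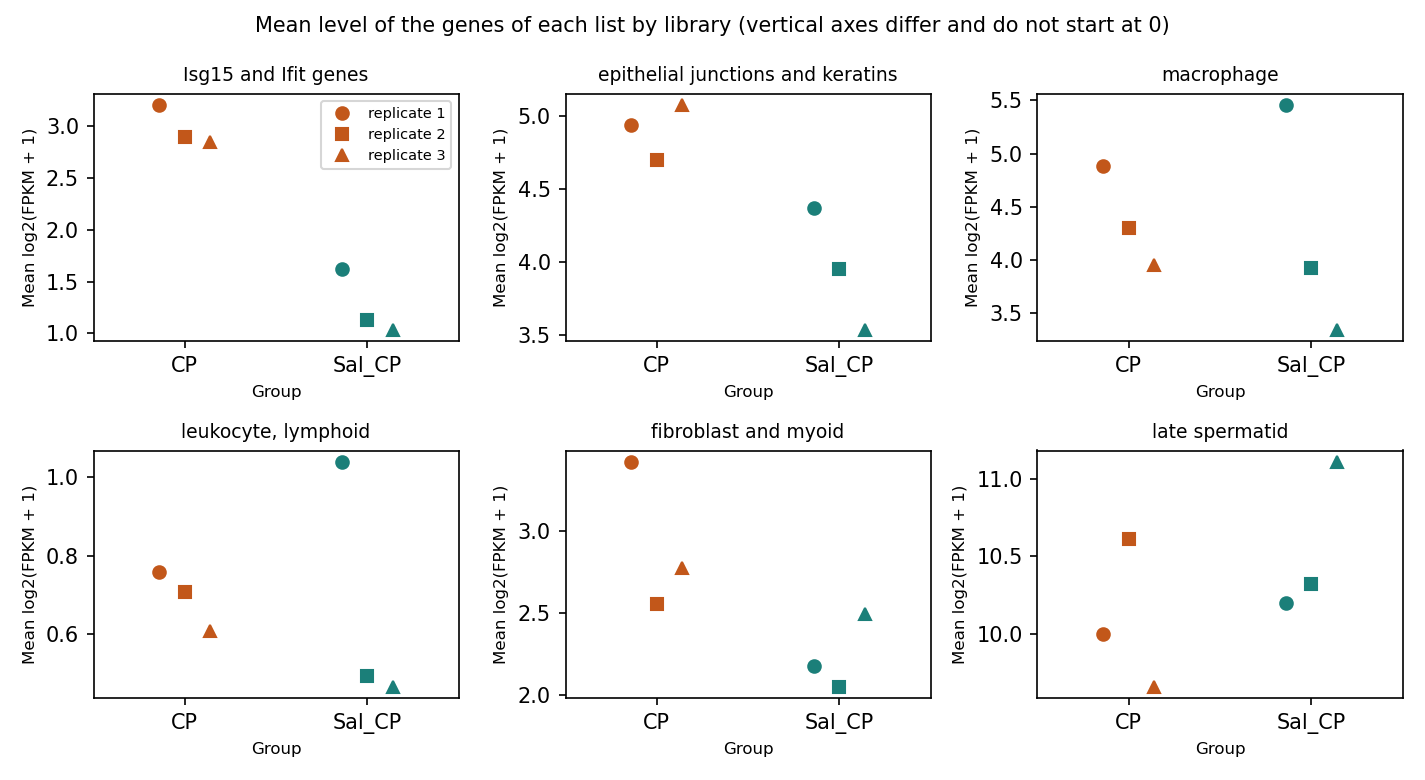
Mean log2(FPKM + 1) of the members and of 5 marker lists in each library, in panels whose vertical axes differ. The members, the epithelial list and the fibroblast and myoid list did not overlap between groups, whereas Sal_CP replicate 1 had the highest macrophage mean, at 5.46.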

How the data were processed

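Total RNA of 6 libraries was sequenced as paired reads of 150 bases with strand kept, per the labels' protocols, and the submitters' processing notes name GRCm38. The sources used here do not give the aligner, quantifier or test. The deposited values are FPKM per gene and library, computed by the authors. The authors' deposited fold (ratio) column, its log2 and their p-value and q-value columns were used only for their calls. The 12241 of 36842 genes averaging 1 FPKM or more were fitted as log2(FPKM + 1) by limma 3.58.1 (R 4.3.3) using a prior trend and 4 residual degrees of freedom. Benjamini-Hochberg adjustment ran over all of them at 0.05. The limma script was also run on simulated data. Differences were planted there only in genes more abundant than any member, so that run does not cover genes at the members' levels. Groups came from the titles, and no per-sample column was left out.

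FPKM times transcript length was taken for genes with 1 transcript, and its commonest low value was read as 1 fragment. Within 10 fragments, 35.7 to 37.8% of such values lay within 0.02 of a whole fragment or a single read of a pair. The rest did not, so no count test was run, and fragment numbers of members are approximate. Ifit2 has several transcripts and got none.

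Sequences came from RefSeq (GRCm38.p6) and GENCODE M21, where all 5 members matched, and figures from matplotlib 3.10.9. Named are all members, called or otherwise up to 4 leading genes of each list, further genes where the text says they were picked after their values were seen or as examples of a count, and the 10 genes most alike; 1 gene of the transcription factor list is not reported here. Members and lists were chosen with earlier results of these data known. The alternatives changed the pseudocount, the filter, the scaling or limma's options, used the replicate number as a block, or left out each library.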

Additional observations from a re-analysis of the deposited data

How the results depend on the processing

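Over 16 alternatives, the differences were -2.60 to -2.04 for Isg15, -2.42 to -1.85 for Ifit3 and -2.93 to -1.56 for Ifit3b. They were -2.21 to -1.26 for Ifit1 and -1.61 to -0.84 for Ifit2. Since no member overlapped between groups, only the alternatives that rescale the libraries could have turned a sign. The mean of the members differed by -1.58 after median of ratios rescaling and by -1.66 after quantile normalization. Removing mitochondrially encoded genes gave -1.77. A pseudocount of 0.1 gave -2.21 for Ifit1, -1.61 for Ifit2, -2.42 for Ifit3, -2.93 for Ifit3b and -2.35 for their mean with Isg15, and 0.5 gave -1.76 for Ifit1, -2.24 for Ifit3b and -1.998 for that mean, since a smaller constant compresses low values less. With 0.1 the medians were -0.85 for ISG15 conjugation and -0.88 for the sensors. limma called 9 genes lower, 0 after median of ratios rescaling or without a filter, 5 after quantile normalization, and 0 to 12 with a library left out (0 without Sal_CP replicate 1 or 2, 5 without CP replicate 1). It called 0 higher, and 0 to 1 with a library left out. Median of ratios rescaling, which moved the median of all genes from -0.12 to 0.04, turned the medians of the cluster's neighbours (0.0557) and of the cap and eIF3 list (0.0933). The median of Isg15's neighbours was -0.0219 without a filter and -0.48 to -0.0722 with a library left out, and that of the cap list -0.29 to -0.0153. The log2 ratio of Ifit3b to Ifit3 differed by -1.34 to 0.22 with a library left out, Ifit1 to Ifit3 by -0.24 to 0.35 and Isg15 to the Ifit sum by -0.53 to 0.0435. The cause was not tested. With the replicate number as a block, limma called 200 genes lower and 80 higher, all 5 members and 18 list genes. Deviations of same-numbered libraries correlated at 0.196, -0.115 and -0.0644, and only replicate 1 matched its own number best. With 3 libraries per group, these values cannot settle whether libraries of the same number share a batch or culture. Among members with fragment numbers, counting error is largest relative to the value for Ifit3b in Sal_CP replicate 3, at 4.5 fragments.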

Other observations

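Sal_CP replicate 1 was high for a few genes of the lists, picked after their values were seen. Lipa, the lysosomal acid lipase beside the Ifit cluster, stood at 19.5 FPKM there, at 1.61 and 1.87 in the other Sal_CP libraries and at 2.09, 3.74 and 1.49 in CP. Trim25, a ubiquitin ligase of the RIG-I pathway that can also join ISG15 to proteins, stood at 12.8 FPKM there, at 2.69 and 2.24 in the other Sal_CP libraries and at 3.15, 5.42 and 5.11 in CP. Irf8, a transcription factor of myeloid cells, stood at 5.24 FPKM there, at 1.01 and 0.582 in the others and at 1.49, 1.86 and 1.598 in CP. The log2 difference of Trim25 between groups was 0.01 (SE 0.47, adjusted p 0.994 in limma).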
